A study of Mus musculus with 141 samples.

Results

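Glucocorticoid activation and response genes were examined in inguinal white adipose tissue (iWAT), labelled subcutaneous adipose, of the HMDP, the hybrid mouse diversity panel of classical inbred and recombinant inbred strains. The set holds 6 of the 36558 genes in the tables and was defined by name: Hsd11b1, the receptors Nr3c1 and Nr3c2, and the hormone-induced genes Fkbp5, Tsc22d3 and Zbtb16. It was chosen with earlier results of these data known. All 6 passed the filter on low counts in every fit, with estimated counts per library of 54 or more. The libraries, 67 female and 74 male, covered 82 strains, with 1 library per sex and strain, 59 strains sampled in both sexes, 8 in females only and 15 in males only. All mice ate chow until 8 weeks of age and an HF/HS diet, rich in fat and sucrose, for the next 8 weeks, and were killed after a 4 h fast. The females comprised 21 classical inbred, 32 BXD, 9 AXB/BXA, 3 CXB and 2 BXH strains, and the males 23, 34, 11, 3 and 3. The BXD strain BXD24/TyJ-Cep290<rd16>/J, sampled in both sexes, carries by its name the rd16 allele of Cep290. BXD lines descend from C57BL/6J and DBA/2J, AXB and BXA lines from A/J and C57BL/6J, CXB lines from BALB/cBy and C57BL/6, and BXH lines from C57BL/6J and C3H/HeJ, so strains of a family share alleles. No group was treated with a glucocorticoid, and each library is from whole fat depot RNA, in which fewer cells of a type and less RNA per cell cannot be told apart.

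In GRCm38, Hsd11b1 (ENSMUSG00000016194) lies on chromosome 1 at 193221634 to 193264075 and Fkbp5 (ENSMUSG00000024222) on chromosome 17 at 28399094 to 28517527, both on the minus strand. Nr3c1 (ENSMUSG00000024431) lies on chromosome 18 at 39410545 to 39519421 on the minus strand, and Nr3c2 (ENSMUSG00000031618) on chromosome 8 at 76899442 to 77245012 on the plus strand. Tsc22d3 (ENSMUSG00000031431) occupies X chromosome positions 140539528 to 140600659 and Zbtb16 (ENSMUSG00000066687) chromosome 9 positions 48654297 to 48836222, again on the minus strand.

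Corticosterone, the glucocorticoid of the mouse, reaches fat from the adrenal gland and is also regenerated inside fat cells by the reductase that Hsd11b1 encodes. The hormone binds the glucocorticoid receptor (Nr3c1) and, with higher affinity, the mineralocorticoid receptor (Nr3c2), which then act on DNA as transcription factors. Fkbp5 encodes a co-chaperone that lowers the receptor's affinity for hormone, Tsc22d3 encodes the leucine zipper protein GILZ with anti-inflammatory action, and Zbtb16 encodes the zinc finger repressor PLZF. These last genes are widely used as readouts of receptor activity, and in fat the pathway is known for driving adipocyte differentiation and lipid turnover.

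Promoter sequence is shown for Fkbp5 and Tsc22d3, 2 hormone-induced genes whose levels rose together across strains in both sexes. The letters searched were AGAACA, a 6-base site bound by these receptors, on either strand (TGTTCT on the other), and the palindrome in which AGAACA is followed, after any 3 bases, by TGTTCT, which contains that site in both orientations. RefSeq windows of 300 bases around annotated starts were available for 4 members, 6 windows in all, and 1 of the 6 held the 6-base site, beside 18.97% of all 32851 windows. The palindrome was present in 3 of the 32851 windows, 1 of them before a start of Sgk1, and in none of the members' windows. Below are the 250 bases before a start in GRCm38.p6, on the gene's own minus strand, with the 6-base site in capitals.
Tsc22d3 chrX:140600523-140600772: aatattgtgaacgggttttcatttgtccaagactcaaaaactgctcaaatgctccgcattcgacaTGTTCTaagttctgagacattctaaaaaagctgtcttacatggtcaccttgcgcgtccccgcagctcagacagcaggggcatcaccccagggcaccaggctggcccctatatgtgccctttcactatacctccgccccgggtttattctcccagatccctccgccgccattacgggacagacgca
Fkbp5 chr17:28486150-28486399: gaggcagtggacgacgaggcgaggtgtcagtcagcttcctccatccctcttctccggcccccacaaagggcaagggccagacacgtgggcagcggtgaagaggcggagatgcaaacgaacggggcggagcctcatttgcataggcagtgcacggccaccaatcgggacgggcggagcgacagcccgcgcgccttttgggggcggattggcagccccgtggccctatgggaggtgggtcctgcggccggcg
The Fkbp5 window and the other 2 windows of Tsc22d3 held neither motif, which says only that these letters are missing from those windows.

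Estimated counts summed to between 6269154 and 78562648 per library, with a median of 30233245, so 3 counts corresponded to 0.0382 to 0.479 CPM (counts per gene, scaled to the same library total). Adipocyte markers were abundant in every library. Summed CPM of 4 Y-linked genes ranged from 5.57 to 34.01 in 65 female libraries and from 184 to 538 in 73 male libraries, and went against the label in 3: the libraries labelled BXD34/TyJ female (1406 CPM, also the shallowest) and BXD69/RwwJ female (368 CPM), and the library labelled NZW/LacJ male (8.15 CPM). Of these, NZW/LacJ alone belongs to the 59 paired strains. They were kept, and values without them are given where the text says so. Levels of different genes are compared as TPM, the scaled transcript abundance, which adjusts for transcript length, whereas libraries are compared by CPM scaled with trimmed mean of M-values factors (TMM), because the 10 most abundant genes took from 10.9% to 63.3% of a library's TPM.

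Per length, Hsd11b1 was the most abundant of the 6 genes and Nr3c2 the least in both sexes. In females the median TPM was 84.8 for Hsd11b1, 60.96 for Tsc22d3, 47.6 for Nr3c1, 16.1 for Fkbp5, 13.1 for Zbtb16 and 4.39 for Nr3c2. In males the corresponding medians were 123.7, 89.9, 51.2, 24.0, 21.5 and 4.17 TPM. Transcripts of the glucocorticoid receptor thus stood well above those of the mineralocorticoid receptor in median TPM. Neighbours in this order overlapped over libraries, for instance Fkbp5 at 3.07 to 72.9 TPM and Zbtb16 at 2.85 to 61.02 TPM in females.

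The receptors varied little between libraries and the other members varied widely. Over the 67 female libraries Nr3c1 ran from 84.2 through a median of 180 to 286 CPM, and over the 74 male libraries from 126.8 through 208 to 306 CPM. The lowest female value belonged to the library labelled BXD34/TyJ, and the next was 125.7 CPM. Nr3c2 ran from 7.999 through 15.5 to 25.5 CPM in females and from 7.83 through 15.4 to 24.4 CPM in males. The 90th percentile of Nr3c1 exceeded its 10th percentile 1.62-fold in females and 1.44-fold in males, against 1.79-fold and 1.67-fold for Nr3c2.

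**Figure D1:**
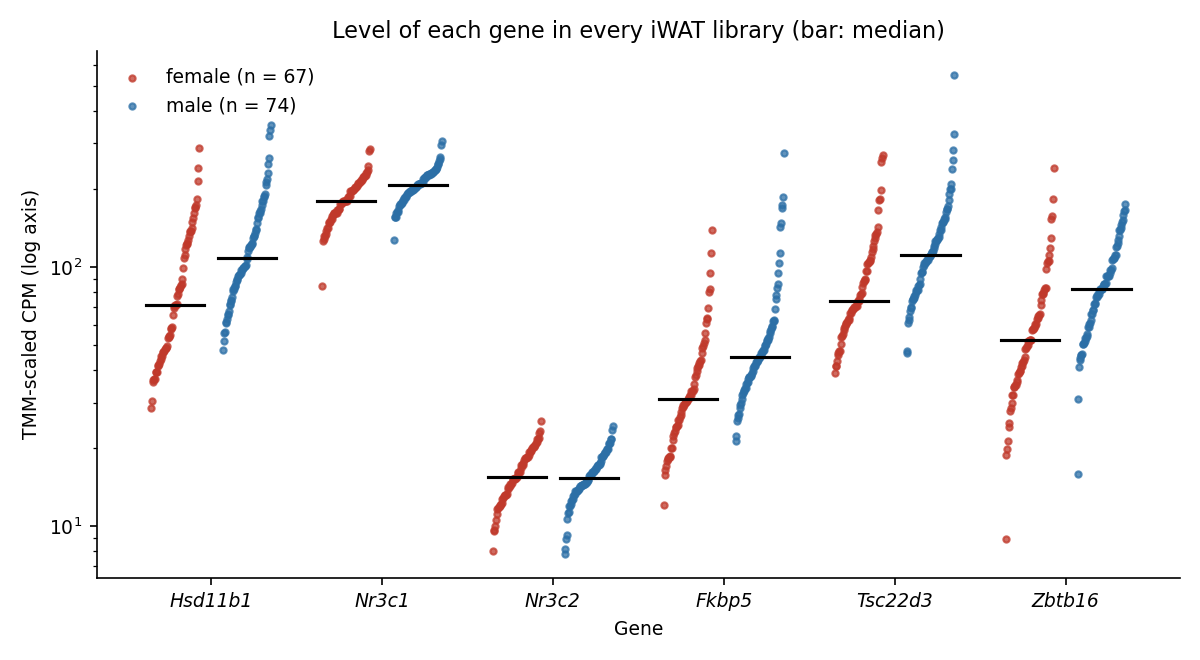
TMM-scaled CPM on a log axis for the 6 genes, 1 point per library, with 67 females in red and 74 males in blue sorted by level within each column and a bar at the median. Nr3c1 and Nr3c2 form short columns, whereas Hsd11b1, Fkbp5, Tsc22d3 and Zbtb16 form long ones, with the male medians of these 4 genes above the female ones.

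Hsd11b1 ran from 28.7 through a median of 71.6 to 288 CPM in females and from 47.7 through 108.03 to 352 CPM in males. Fkbp5 ran from 12.1 through 30.9 to 138.8 CPM in females and from 21.2 through 44.97 to 276 CPM in males. For Tsc22d3 the female values were 39.1, 74.1 and 271 CPM and the male values 46.7, 111.5 and 552 CPM, in the same order of lowest, median and highest. The plot of levels by library shows that the sexes overlapped for every gene. As a ratio of highest to lowest, Zbtb16 had the widest female span, 8.95 through 52.3 to 242 CPM, against 15.9 through 82.3 to 175 CPM in males. Its lowest female value came from AXB12/PgnJ, and the next was 18.8 CPM. The lowest male value of Zbtb16 came from the library labelled NZW/LacJ, without which the lowest male was 30.9 CPM.

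To ask whether the pathway differed between the sexes, female and male libraries of the 59 paired strains were compared with strain as a term, by the quasi-likelihood test of edgeR, with Benjamini-Hochberg adjustment across 16765 genes. The activating enzyme, the glucocorticoid receptor and the 3 hormone-induced genes were lower in females, whereas Nr3c2 did not pass. Thus 5 of the 6 members were lower in females, while across all genes tested 29.8% were lower, 28.4% higher and 58.1% called in either direction. The members' median log2FC (female vs. male) was -0.50, beside 0.01 over all genes tested.

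Over the 59 strains, female Hsd11b1 averaged 89.9 ± 56.6 CPM and male Hsd11b1 130.4 ± 67.96 CPM (mean ± SD, n = 59, as for the genes that follow). The log2FC was -0.60 (SE 0.0984, adjusted p = 4.57e-07), and the gene was lower in the female of 47 strains. Strains differed in the size of the difference, from -2.43 in NZB/BlNJ, where the female had 65.2 and the male 352 CPM, to 1.37 in A/J, where the female had 241 and the male 93.4 CPM. H6pd, which encodes the enzyme that supplies NADPH to this reductase in the endoplasmic reticulum, was lower in females too (log2FC -0.69, SE 0.0837, adjusted p = 2.66e-10).

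Nr3c1 averaged 185 ± 34.6 CPM in females and 207 ± 32.9 CPM in males, a log2FC of -0.16 (SE 0.0417, adjusted p = 0.00115), and was lower in the female of 41 strains. This small difference depended on scaling: with library totals in place of TMM, which moved the median of all genes to 0.12, it was -0.05 (adjusted p = 0.262), and with limma on log2(TPM + 1) it was -0.09 (adjusted p = 0.205). Nr3c2 averaged 15.98 ± 3.93 CPM in females and 15.9 ± 3.22 CPM in males, with a log2FC of 0.01 (SE 0.0606, adjusted p = 0.891). It was lower in the female of 30 strains, from -1.25 in AXB12/PgnJ to 1.25 in I/LnJ, and with library totals it passed as higher in females (0.12, adjusted p = 0.0393).

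Fkbp5 averaged 36.2 ± 21.4 CPM in females and 54.4 ± 34.9 CPM in males, a log2FC of -0.55 (SE 0.0898, adjusted p = 4.18e-07), with 47 strains lower in the female. Its widest gap was in BXD50/RwwJ, with 24.4 CPM in the female and 147 CPM in the male, and the highest difference in the other direction was 0.70 in SWR/J. Tsc22d3 averaged 90.6 ± 49.7 CPM in females and 120 ± 48.5 CPM in males, a log2FC of -0.45 (SE 0.0680, adjusted p = 9.51e-08), with 49 strains lower in the female. BXD50/RwwJ again had the widest gap for Tsc22d3, 53.96 against 168 CPM.

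Zbtb16 averaged 60.8 ± 41.2 CPM in females and 87.3 ± 35.6 CPM in males, a log2FC of -0.64 (SE 0.118, adjusted p = 5.24e-06), with 50 strains lower in the female. Both of its extreme strains held a library that stood apart. The AXB12/PgnJ female had 8.95 CPM against 110.96 CPM in the male, and this female had the lowest summed adipocyte markers of all females, 3533 CPM. In NZW/LacJ the female had 118.4 CPM and the library labelled male 15.9 CPM, and without NZW/LacJ the Zbtb16 log2FC was -0.69 (adjusted p = 9.51e-08).

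**Figure D2:**
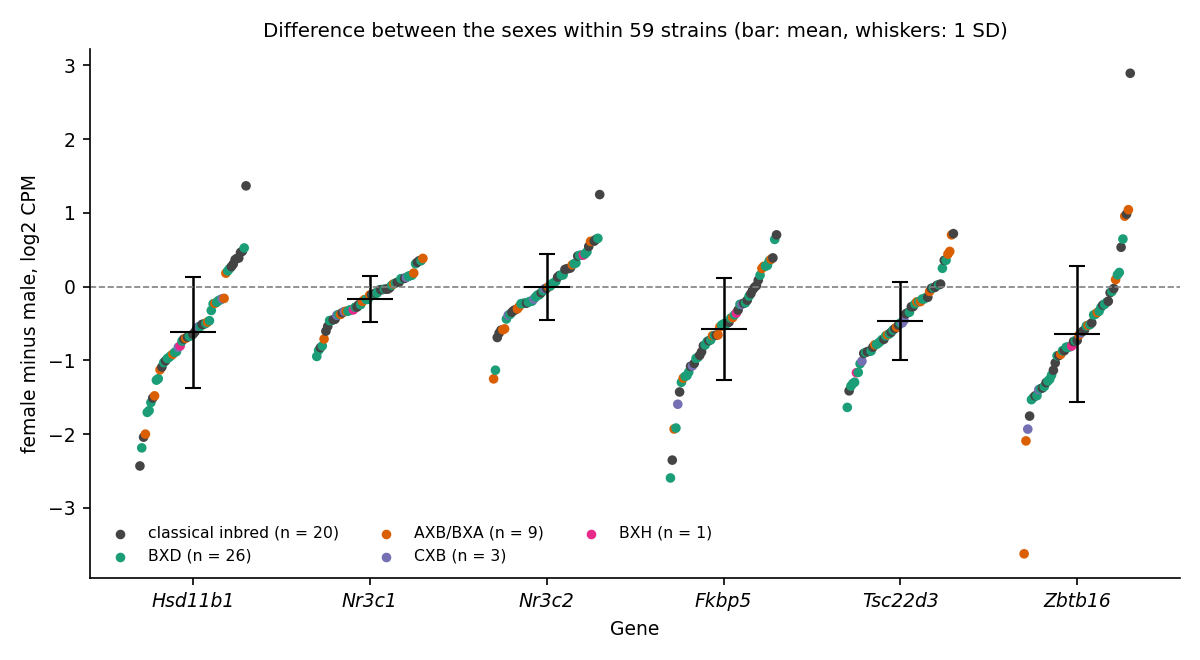
Female minus male difference in log2 CPM for each of 59 strains, coloured by strain family and sorted within each gene, with a bar at the mean and whiskers of 1 SD. Most strains lie below 0 for Hsd11b1, Fkbp5, Tsc22d3 and Zbtb16, whereas Nr3c2 is centred on 0, and the outlying Zbtb16 points are AXB12/PgnJ at -3.62 and NZW/LacJ at 2.89.

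Markers of some cell types differed between the sexes as well. All 6 adipocyte markers (Adipoq, Plin1, Plin4, Cidec, Fabp4, Lipe) were lower in females with a median log2FC of -0.60, and their summed level ran from 3533 through 18683 to 36070 CPM in females and from 8083 through 24897 to 44322 CPM in males. All 7 mammary epithelial markers were higher in females with a median log2FC of 7.65. Their sum ran from 0.492 through 394 to 1205 CPM in females and from 0.164 through 1.83 to 418 CPM in males. The lowest female sum was in BXD69/RwwJ and the highest male sum in NZW/LacJ, libraries whose Y-linked genes went against their label. Next came 63.6 CPM in the BXD24/TyJ-Cep290<rd16>/J female and 284 CPM in the PL/J male. The lowest male adipocyte sum, 8083 CPM, was also in the library labelled NZW/LacJ male. The 5 macrophage and 4 endothelial markers were all lower in females. Of 6 progenitor markers 2 were higher and 1 lower, and 0 of 6 lymphocyte and 0 of 4 skeletal muscle markers passed. Over all genes tested 29.8% were lower and 28.4% higher.

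The mean log2 CPM of the adipocyte markers was used as a covariate, chosen after seeing the data. With it Hsd11b1 (-0.38, adjusted p = 0.00696), Fkbp5 (-0.71, adjusted p = 5.05e-07) and Tsc22d3 (-0.51, adjusted p = 2.46e-06) were still lower in females. Under the same covariate Nr3c1 was at 0.02 (adjusted p = 0.716) and Zbtb16 at -0.10 (adjusted p = 0.487), and Nr3c2 was higher in females (0.26, adjusted p = 2.17e-04). With the adipocyte and mammary means together none of the 6 members passed by edgeR, but then 29 of all 16765 genes did, since the mammary mean nearly separates the sexes by itself. The part of the other cell types in the differences was not tested.

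Other genes of the pathway, from lists by function chosen with earlier results of these data known, did not share 1 direction. Of the 7 genes of glucocorticoid conversion and transport, Hsd11b1 included, 6 were tested: 3 were lower in females, 1 was higher and the median log2FC was -0.25. Abcb1b, a drug efflux pump that exports steroids, was lower (-0.38, SE 0.0565, adjusted p = 5.46e-08) and Srd5a1, a steroid reductase that clears glucocorticoids, was higher (0.47, SE 0.0827, adjusted p = 2.38e-06). Hsd11b2, which inactivates corticosterone, had a log2FC of -0.12 (adjusted p = 0.425). Of 13 receptor chaperones and coregulators, 4 were higher, 2 were lower and 7 did not pass, with a median of 0.03. Beside the counts of both lists, 29.8% of all genes tested were lower and 28.4% higher. Fkbp4, the co-chaperone that competes with the Fkbp5 product, was higher in females (0.29, SE 0.0458, adjusted p = 2.39e-07), as was the chaperone Hsp90ab1 (0.27, SE 0.0347, adjusted p = 1.83e-09). Crebbp (0.16), Ptges3 (0.13) and Ncoa1 (-0.12) completed the 5 largest differences of that list.

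Among 15 tested genes of 16 that glucocorticoids are known to induce in other settings, 7 were lower in females and 3 higher, with a median log2FC of -0.24. Over all genes tested the shares were 29.8% lower and 28.4% higher, and 58.1% were called in either direction. Cdkn1a, a cell cycle inhibitor (-0.67, adjusted p = 2.99e-06), Angptl4, an inhibitor of lipoprotein lipase (-0.64, adjusted p = 8.55e-08), and the metallothioneins Mt2 (-0.54, adjusted p = 0.00192) and Mt1 (-0.48, adjusted p = 8.73e-06) were lower, whereas Errfi1, an inhibitor of EGF receptor signalling, was higher (0.50, adjusted p = 2.25e-07). Per1 (0.02, adjusted p = 0.870) and Sgk1 (0.08, adjusted p = 0.277) did not pass. With library totals the counts were 7 lower and 5 higher.

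The same fit asked whether strains differed once sex was accounted for, with the female and male of a strain as its 2 samples. Strain differences passed for Tsc22d3 (F = 4.80, adjusted p = 7.63e-08), Fkbp5 (F = 3.72, adjusted p = 5.46e-06), Hsd11b1 (F = 3.47, adjusted p = 1.58e-05) and Zbtb16 (F = 1.93, adjusted p = 0.0122). Neither receptor passed, with adjusted p = 0.0664 for Nr3c1 and 0.295 for Nr3c2. The 4 of 6 members called stand beside 71.2% of all genes tested, so the share is no higher than the background. With limma-voom Zbtb16 missed the threshold (adjusted p = 0.0783), and with adipocyte and mammary covariates both receptors passed (adjusted p = 0.0358 and 0.0197).

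As a description, Pearson's r between the female and the male log2 CPM of a strain was 0.62 for Tsc22d3, 0.51 for Hsd11b1, 0.48 for Fkbp5, 0.26 for Zbtb16, 0.22 for Nr3c1 and 0.09 for Nr3c2 (n = 59 strains), beside a median of 0.30 over genes. Spearman's rho was 0.53, 0.55, 0.41, 0.40, 0.14 and 0.11 in the same order. Without the 2 strains farthest from the median, r of Fkbp5 was 0.34 and that of Tsc22d3 0.55. The diet and the laboratory were common to all libraries, and the labels do not give what a pair shares beyond its strain.

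**Figure D3:**
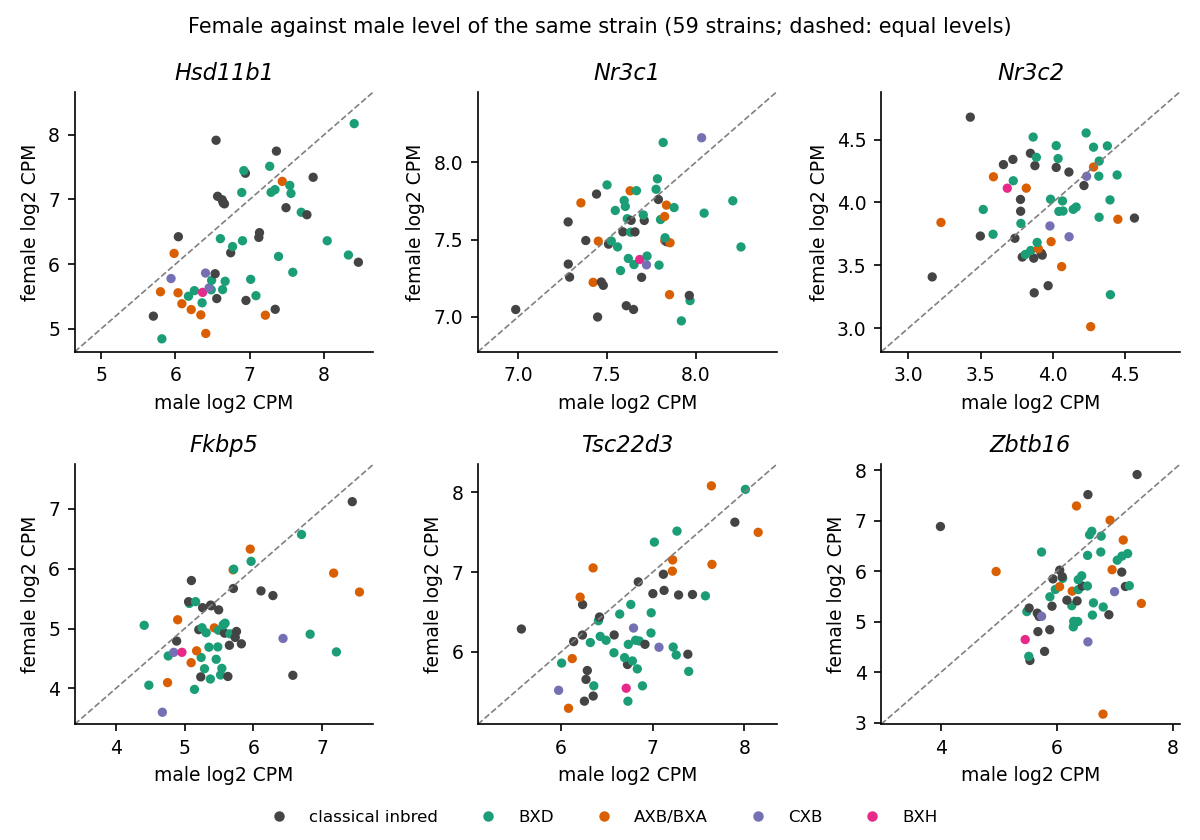
Female against male log2 CPM of each of 59 strains for the 6 genes, coloured by strain family, with a dashed line where the levels are equal. Points of Tsc22d3 and Hsd11b1 spread along the line, and most lie below it, whereas Nr3c2 forms a round cloud across it.

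Named strains stood at the ends of the Fkbp5 and Tsc22d3 ranges, ordered by the mean log2 CPM of both sexes over the 59 paired strains. Fkbp5 was highest in 129X1/SvJ, with 138.8 CPM in the female and 173 CPM in the male, and lowest in CXB11/HiAJ, with 12.1 and 25.5 CPM. Tsc22d3 was highest in BXD24/TyJ-Cep290<rd16>/J, the strain with a named Cep290 allele, with 263 and 258 CPM. It was lowest in AXB13/PgnJ, with 39.1 and 67.7 CPM. The highest single values of both genes, 276 and 552 CPM, were in the BXH6/TyJ male, a strain with no female library here, and in this library Nr3c2 was the lowest of the 74 males at 7.83 CPM.

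For Hsd11b1 the upper end was BXD51/RwwJ, with 288 CPM in the female and 339 CPM in the male, and the lower end BXD71/RwwJ, with 28.7 and 56.3 CPM. Zbtb16 was highest in 129X1/SvJ, the strain highest in Fkbp5, with 242 and 167 CPM, and lowest in SJL/J, with 18.8 and 46.3 CPM. SJL/J was also lowest in both receptors, with Nr3c1 at 132.3 and 126.8 CPM and Nr3c2 at 10.5 and 8.90 CPM. Conversely CXB11/HiAJ, lowest in Fkbp5, was highest in Nr3c1 with 286 and 262 CPM. With 1 library per sex and strain, the rank of a single strain has no replicate within a sex.

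Families were compared within each sex, with strains as samples, for classical inbred, BXD and AXB/BXA strains. AXB19/PgnJ, AXB19a/PgnJ and AXB19b/PgnJ, substrains by their names, were counted as separate AXB/BXA strains in both sexes. In 1 of the settings AXB19/PgnJ alone was kept of them. In females none of the 6 members passed by edgeR, beside 8.31% of 15427 genes, 1 member had an unadjusted p under 0.05, and limma-voom and DESeq2 also called none. In males Nr3c1 alone passed (F = 7.97, adjusted p = 0.0234), beside 5.32% of 14971 genes. Its male medians were 193 CPM in classical inbred, 220 CPM in BXD and 209 CPM in AXB/BXA strains, and all families overlapped. Nr3c1 passed in each of the 11 settings of that fit, with adjusted p from 0.0149 to 0.0398.

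AXB/BXA strains had the lowest median of Hsd11b1 and the highest of Tsc22d3 among the 3 families in both sexes, without passing. Median Hsd11b1 was 89.6 CPM in classical inbred, 78.1 in BXD and 41.8 in AXB/BXA females (adjusted p = 0.166), and 120, 125 and 74.1 CPM in males (adjusted p = 0.114). Their parents A/J and C57BL/6J had 241 and 123.4 CPM in females and 93.4 and 99.8 CPM in males, above the AXB/BXA medians. Median Tsc22d3 was 78.02, 70.7 and 132.7 CPM in females (adjusted p = 0.217) and 101.5, 113.1 and 149 CPM in males (adjusted p = 0.141).

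Within BXD, as a description with no test of the suffixes, median Hsd11b1 was 142.1 CPM in 9 TyJ and 69.4 CPM in 23 RwwJ females, and 131.97 and 119.1 CPM in the males. Both female groups include a library that went against its label, BXD34/TyJ and BXD69/RwwJ. With all 5 families in males, Tsc22d3 (adjusted p = 0.00715) and Nr3c2 (adjusted p = 0.0333) also passed, each in 1 of 11 settings, and 1361 genes in all were called. There the 3 BXH males had a median Tsc22d3 of 209 CPM and a median Nr3c2 of 8.20 CPM.

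Whether the sex difference itself differed between BXD and other strains was tested as an interaction. No member passed by edgeR, nor did any of the 16765 genes (0% called), with 314 genes and 0 members at an unadjusted p under 0.05, and limma-voom also called 0. The largest member term was -0.25 for Tsc22d3 (SE 0.134, adjusted p = 0.9999), a more negative difference in BXD strains.

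To see which members varied together across strains, each gene's slope on the log2 CPM of each other member was fitted within a sex. A slope is the log2 change of a gene per doubling of the other, and both values come from the same library and scaling. Of 30 ordered pairs, 17 passed in females (12 positive, 5 negative) and 16 in males (8 positive, 8 negative). Of the 15 unordered pairs, 8 in females and 7 in males passed whichever gene was the predictor, and 6 did so in both sexes: the 3 pairs among Fkbp5, Tsc22d3 and Zbtb16, the receptor pair, and each receptor with Fkbp5. In females the slope on Fkbp5 passed in only 2 of 6 settings for Nr3c1 and 1 of 6 for Nr3c2. The counts of pairs need the background of each predictor, the share of all 15476 genes in females and 14976 in males with a called slope on it.

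The share of all genes called was large for some predictors. On Nr3c1 it was 28.5% positive and 34.9% negative in females, and 23.6% and 26.4% in males. On Nr3c2 it was 27.4% and 25.3% in females and 25.5% and 28.2% in males, and on Zbtb16 27.4% and 25.8% in females and 19.3% and 21.6% in males. On Tsc22d3 the positive and negative shares were 10.7% and 7.46% in females and 7.76% and 6.68% in males. On Hsd11b1 they were 8.57% and 7.31% in females and 1.85% and 1.17% in males, and on Fkbp5 8.5% and 2.12% in females and 1.46% and 2.14% in males. A call on either receptor or on Zbtb16 was therefore common among genes in general.

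Fkbp5 and Tsc22d3 rose together in both sexes. Tsc22d3 rose by 0.70 per doubling of Fkbp5 in females (SE 0.0689, adjusted p = 2.91e-11) and by 0.63 in males (SE 0.0594, adjusted p = 8.62e-13), when 8.5% of all genes in females and 1.46% in males had a positive call on Fkbp5. This slope passed in each of the 6 settings in either sex, from 0.65 to 0.73 in females and from 0.62 to 0.66 in males. Spearman's rho of the pair was 0.67 in females and 0.64 in males, and by family it ran from 0.43 in 23 classical inbred males to 0.98 in 9 AXB/BXA females. Across the 59 within-strain differences between the sexes, Pearson's r of Fkbp5 with Tsc22d3 was 0.61. Of the 6 highest female and 7 highest male libraries for each gene, 5 were shared in females (129X1/SvJ, BXA7/PgnJ, BXD24/TyJ-Cep290<rd16>/J, BXD6/TyJ and BXD60/RwwJ) and 5 in males (129X1/SvJ, AXB19a/PgnJ, BXA11/PgnJ, BXA2/PgnJ and BXH6/TyJ).

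Zbtb16 rose less steeply with Fkbp5, by 0.48 in females (SE 0.113, adjusted p = 0.00149) and 0.39 in males (SE 0.0731, adjusted p = 4.18e-04). With limma-voom the female slope did not pass (0.44, adjusted p = 0.139). Its rho with Fkbp5 was 0.27 in females and 0.39 in males. Of the highest libraries, Zbtb16 shared 3 of 6 in females and 5 of 7 in males with Fkbp5, and as many with Tsc22d3. Zbtb16 also had a positive slope on Tsc22d3, 0.58 in females (SE 0.125, adjusted p = 6.86e-04) and 0.39 in males (SE 0.0930, adjusted p = 0.00223), when 10.7% of genes in females and 7.76% in males did.

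The receptors ran against Fkbp5. Nr3c1 fell by 0.14 per doubling of Fkbp5 in females (SE 0.0472, adjusted p = 0.0367) and by 0.15 in males (SE 0.0312, adjusted p = 0.00255), when 2.12% and 2.14% of genes had a negative call. Nr3c2 fell by 0.18 in females (SE 0.0559, adjusted p = 0.0242) and by 0.18 in males (SE 0.0474, adjusted p = 0.0207). With Fkbp5 as the outcome its slope was -0.71 on Nr3c1 in females (adjusted p = 0.02995) and -1.96 in males (adjusted p = 4.82e-06), and -0.80 (adjusted p = 0.00654) and -1.07 (adjusted p = 8.73e-05) on Nr3c2. The female calls of the receptors on Fkbp5 failed in most of the 6 settings. Nr3c1 passed in 2 of them and Nr3c2 in 1, with adjusted p up to 0.2395 and 0.1293. Among these settings, 1 left out the 2 female libraries whose Y-linked genes went against the label, BXD34/TyJ and BXD69/RwwJ. There the slopes were -0.12 for Nr3c1 (adjusted p = 0.186) and -0.19 for Nr3c2 (adjusted p = 0.0902). All female calls on Fkbp5 then changed from 1316 positive and 328 negative genes to 65 and 49. The rho with Fkbp5 was -0.40 in females and -0.46 in males for Nr3c1, and -0.46 and -0.39 for Nr3c2.

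Between the receptors the slope was positive in both directions and sexes. Nr3c2 rose by 0.63 per doubling of Nr3c1 in females (SE 0.122, adjusted p = 1.27e-05) and by 0.96 in males (SE 0.133, adjusted p = 4.45e-08), and 28.5% of genes in females and 23.6% in males also had a positive call on Nr3c1. The pair's rho was 0.58 in females and 0.65 in males.

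Hsd11b1, the activating enzyme, had no positive slope past the test on any of the 3 hormone-induced genes. Its slope on Fkbp5 was -0.14 in females (SE 0.149, adjusted p = 0.603) and -0.23 in males (SE 0.10, adjusted p = 0.186). On Tsc22d3 it was -0.29 in females (SE 0.152, adjusted p = 0.177) and passed as negative in males (-0.39, SE 0.10, adjusted p = 0.00423), when 6.68% of male genes did, whereas the slope of Tsc22d3 on Hsd11b1 in males did not pass (-0.31, adjusted p = 0.1157). On Zbtb16 the slope of Hsd11b1 was 0.19 in females (adjusted p = 0.203) and 0.004 in males (adjusted p = 0.984). The difference between the sexes in these slopes was not tested.

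**Figure D4:**
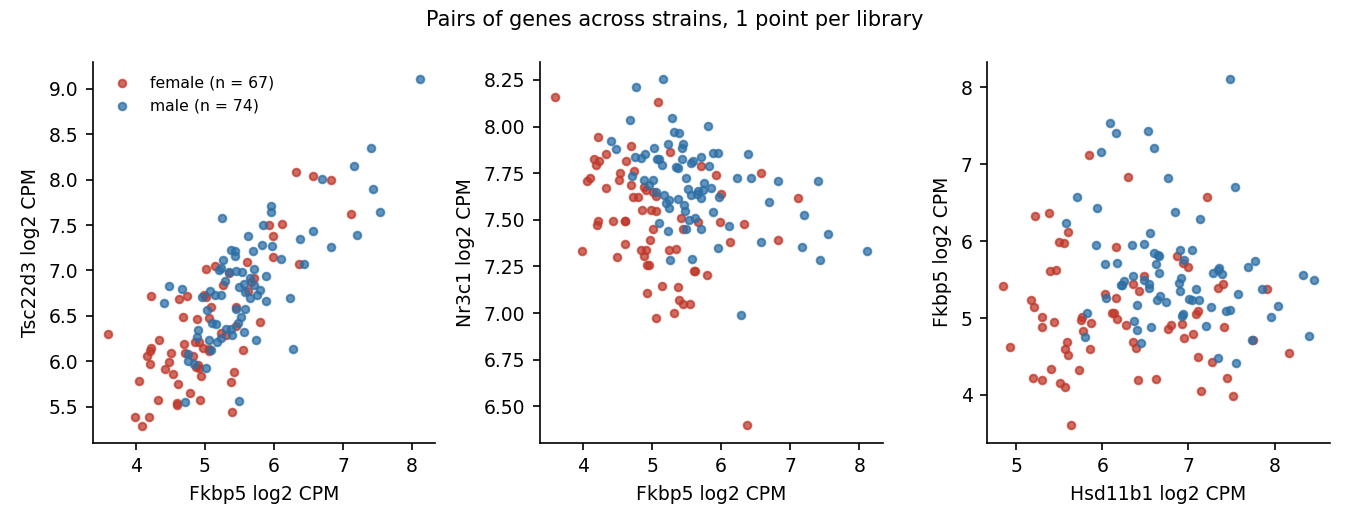
Log2 CPM of Tsc22d3 against Fkbp5, Nr3c1 against Fkbp5 and Fkbp5 against Hsd11b1, 1 point per library, with 67 females in red and 74 males in blue. The Tsc22d3 points rise with Fkbp5 in both sexes, the Nr3c1 points fall slightly, with the isolated low female point at 84.2 CPM being BXD34/TyJ, and the Hsd11b1 panel shows no rise.

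Other glucocorticoid-induced genes followed Fkbp5 in part. Of the 15 tested, 7 had a positive slope on Fkbp5 in females and 9 in males, and 0 had a negative one by edgeR or limma-voom. These counts stand beside shares of 8.5% and 1.46% over all genes, and they were 6 to 7 in females and 8 to 10 in males over the 6 settings. Mt2 had the steepest slopes, 0.71 in females (SE 0.131, adjusted p = 3.20e-05) and 1.43 in males (SE 0.123, adjusted p = 1.72e-14). Mt1 (0.38 and 0.88), the kinase gene Sgk1 (0.33 and 0.42), the clock gene Per1 (0.35 and 0.45), Cdkn1a (0.57 and 0.47), the mTOR inhibitor gene Ddit4 (0.48 and 0.35) and the adipogenic transcription factor gene Cebpd (0.23 and 0.45) passed in both sexes.

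Not every gene of that list did so. Pdk4, a brake on pyruvate oxidation (-0.36 and -0.07), Angptl4 (0.00 and -0.05) and Cdkn1c (-0.09 and -0.19) did not pass in either sex. On Tsc22d3 the counts were 10 positive and 2 negative in females, the negative ones being Pdk4 (-0.64, adjusted p = 0.0164) and Cdkn1c (-0.33, adjusted p = 0.0196), and 10 positive and 0 negative in males.

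**Figure D5:**
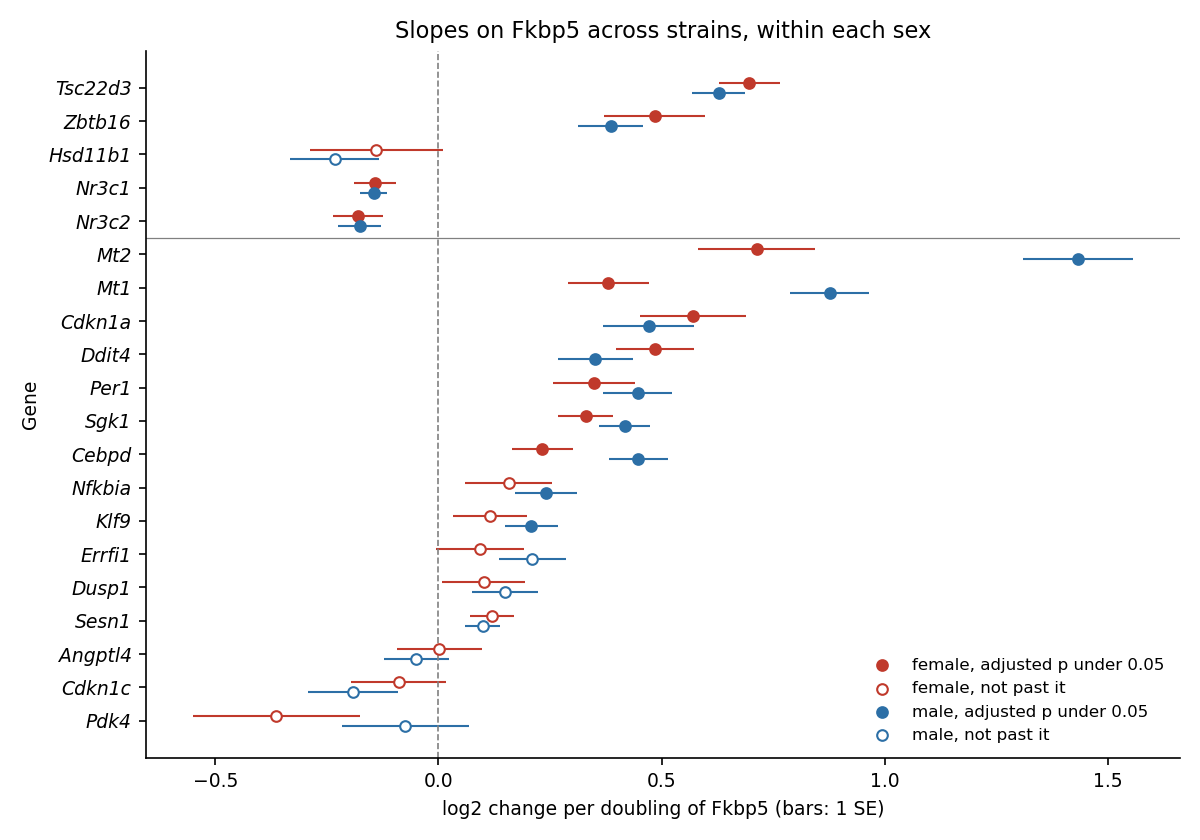
Slope of each gene on Fkbp5 (log2 change per doubling, bars of 1 SE) across 67 female (red) and 74 male (blue) libraries, with the other members above the grey line and the remaining glucocorticoid-induced genes below it. Filled points had an adjusted p under 0.05, and they lie to the right of 0 except for Nr3c1 and Nr3c2.

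Fkbp5 and Tsc22d3 moved little with the amount of adipocyte RNA, whereas Zbtb16 and the receptors did. Spearman's rho with the mean log2 CPM of the adipocyte markers in females and males was -0.12 and -0.16 for Fkbp5, 0.19 and 0.06 for Tsc22d3, 0.19 and 0.11 for Hsd11b1, 0.65 and 0.42 for Zbtb16, 0.62 and 0.40 for Nr3c1 and 0.45 and 0.44 for Nr3c2. None of the 6 adipocyte markers had a called slope on Fkbp5 in either sex and 1 had a positive one on Tsc22d3 in each. All 6 had a positive one on Zbtb16 in both. In females and males, positive calls over all genes were 8.5% and 1.46% on Fkbp5, 10.7% and 7.76% on Tsc22d3, and 27.4% and 19.3% on Zbtb16. Tsc22d3 went down with the mammary mean (rho -0.48 and -0.29), and Fkbp5 and Tsc22d3 with the mitochondrially encoded share of TPM (-0.38 and -0.42, and -0.46 and -0.46). These rho values share library and scaling with the members, and what they contribute was not tested.

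Of 11 clock genes, 0 in females and 1 in males (Per2, 0.43, adjusted p = 0.00644) had a called slope on Fkbp5. Per1 was counted with the glucocorticoid-induced genes and not among these 11, and its slope on Fkbp5 passed in both sexes (0.35 and 0.45). Positive and negative calls on Fkbp5 over all genes were 8.5% and 2.12% in females and 1.46% and 2.14% in males. On Tsc22d3 Per2 alone of the 11 was called, positive in both sexes, beside 10.7% and 7.76% of genes. On Nr3c1, 7 of the 11 had a positive call in females, beside 28.5% of genes, and 2 in males, beside 23.6%. On Zbtb16 the positive calls were 5 in females, beside 27.4%, and 2 in males, beside 19.3%. Negative calls were 0 and 2 on Nr3c1 (34.9% and 26.4% of genes) and 1 and 0 on Zbtb16 (25.8% and 21.6%). The rho of Fkbp5 with Dbp, a clock output gene, was -0.21 and 0.06. With Dbp as a covariate the slope of Tsc22d3 on Fkbp5 passed in both sexes. Dbp varied little with Tsc22d3 either (rho -0.09 and 0.09), so that fit says little about the clock. Per1 and Per2 were not used as covariates. In the comparison of the sexes 4 clock genes were lower in females, Nr1d1 (-0.27), Clock (-0.26), Tef (-0.21) and Cry1 (-0.12), and Npas2 was higher (0.36). Over all genes tested 29.8% were lower and 28.4% higher.

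The genes whose levels were most like a member's were ranked by the mean of the female and male rho over 67 and 74 libraries, among 15085 genes. For Fkbp5 the highest was Tsc22d3 (0.66), followed by Hif3a, Slc25a30, Mt2 and Hipk1 (0.57), and the lowest were Atat1 (-0.57), Krt36 and Pygo1. For Tsc22d3 they were Vhl (0.67), Fkbp5, Paqr7, Anapc16 and Tpst2 (0.60), against Slc22a23 (-0.67) and Dusp4. For Zbtb16 the highest were Map3k6 (0.74), Xdh, Asph, Slc43a3 and 4931406P16Rik (0.69), and the lowest Bcl3 (-0.59), Tonsl and Mcm2.

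Hsd11b1 was most like Pdha1 (0.60), Gbe1, Pygl, Sfxn1 and Immp2l (0.57), among them genes of pyruvate and glycogen metabolism, and least like Klhl3 (-0.48), Diras2 and H2-K1. Nr3c1 was most like Atl3 (0.74), Chml, Arhgap29, Taok1 and Manea (0.72), and least like Rack1 (-0.73), Mmgt2 and Mogs. Nr3c2 was most like Cc2d2a (0.75), Zfyve9, Nedd4, Tgfbr3 and Acvr2a (0.73), and least like Pfn1 (-0.75), Tmsb10 and Med11.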

How the data were processed

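Polyadenylated RNA of iWAT was sequenced as stranded paired-end libraries. The authors quantified them with kallisto (version 0.46.1 per the submitters' notes, genome mm10) against the Ensembl transcriptome and summed transcripts to genes with tximport. The estimated counts and the TPM values are as the authors deposited them: estimated counts per gene, 30.3% of them not whole, and TPM scaled to the same total in each library. Groups follow the labelled sex and strain.

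Expected counts were rounded and tested with edgeR 4.0.16 (R 4.3.3): TMM scaling, filterByExpr, quasi-likelihood F tests, Benjamini-Hochberg adjustment over all genes tested, threshold 0.05. The sex model was strain plus sex, as in the study. Log2 CPM used a prior count of 2. The other settings used limma 3.58.1, DESeq2 1.42.0, other scalings, filters and covariates. Since each sex and strain has 1 library, p-values of the family and slope tests rest on the spread between strains. Those of the sex, strain and interaction tests rest on how the difference between a strain's female and male library varies across strains. Intervals of depth cover counting error only. The tests were first tested on simulated data.

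Strain names paired the samples: deviations of the 59 pairs correlated at a median of 0.56 (-0.31 to 0.80), against -0.01 between different strains. For each pathway list the text names up to 5 genes with the largest called sex difference, plus single genes chosen after their values were seen (Hsd11b2, Per1, Sgk1 and those of the slopes), and for likeness the 5 highest and 3 lowest, except for an item that is not reported here. Members and lists were chosen with earlier results of these data known. Promoters are RefSeq's, with Nr3c1 and Zbtb16 not shown.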

Additional observations from a re-analysis of the deposited data

Results flagged for a closer look

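Within strain families of 4 to 10 libraries, 12 groups of values were checked for a library far from the rest, where chance marks about 1 in 20 such groups. In 1 of them, the 9 AXB/BXA females, Zbtb16 was 8.95 CPM in AXB12/PgnJ and 41.1 CPM in the next lowest library, a gap of 0.532 of the group's range against a critical value of 0.493. The same library had the lowest adipocyte marker sum of the 67 females (3533 CPM) and the highest sums of macrophage (4536 CPM) and lymphocyte markers (1052 CPM), and Nr3c2 was lowest there as well (7.999 CPM). Its Tsc22d3 was 132.7 CPM and its Fkbp5 35.4 CPM, both equal to the AXB/BXA female median. The part of the cell types in the low Zbtb16 value was not tested.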

How the results depend on the processing

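The design paired the sexes by strain. With no replicate block over the matched strains, the same number of members, 5 lower and 0 higher in females, passed, with log2FC -0.52 for Hsd11b1, -0.15 for Nr3c1, 0.02 for Nr3c2, -0.58 for Fkbp5, -0.39 for Tsc22d3 and -0.51 for Zbtb16, and with no replicate block over all libraries the counts were again 5 and 0. With library totals, 4 members were lower and 1, Nr3c2, higher, and 72.8% of all calls were higher in females, against 48.8% with TMM and 65% with log2(TPM + 1).

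Adipocyte and mammary covariates left 0 members lower in females, with log2FC -0.45 for Hsd11b1, -0.34 for Fkbp5, 0.0618 for Nr3c1, -0.0837 for Nr3c2, 0.00736 for Tsc22d3 and 0.38 for Zbtb16. All calls then fell from 9747 to 29. The adipocyte covariate alone, added after seeing the data, left 3 lower and 1 higher, with Nr3c1 at 0.0198. The sign of Nr3c2 also turned with mitochondrial genes left out of scaling (-0.0118), with no low-count filter (-0.00698) and without the strains of libraries against their label (-0.000843). Of the interaction terms, Nr3c2 turned with library totals (-0.0574) and Zbtb16 without those strains (0.0172). The cause was not tested.

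In the family comparison with BXD split, 2 members were called in females, against 0 with BXD as 1 family. These were Hsd11b1 and Tsc22d3, each in 1 of 11 settings. The split fit used libraries of the same 3 families and was not repeated without the libraries against their label. In males the called members were 3 with all 5 families and 2 with covariates, against 1 in the fit of 3 families. All genes called in females were 1282, against 557 with limma-voom, 3717 with no filter, 679 with 5 families, 3696 with BXD split and 530 with covariates. In males they were 797, against 2282 with no filter, 1361 with 5 families, 1816 with BXD split and 1226 with covariates. Negative slopes between members in females were 5, against 3 with library totals, 3 with limma-voom, 2 without the libraries against their label and 2 with Dbp. With marker covariates the female slopes of Zbtb16 on Nr3c1 (-0.23) and of Nr3c1 on Zbtb16 (-0.0404) turned sign, neither passing.

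The labels give 1 library per sex and strain, so a strain's own level has no replicate within a sex. The paper's text allows for more than 1 sample, so whether a library holds 1 mouse or several is not settled here. Nr3c2 had the fewest counts of the members, a median of 488 per library and 54 in the shallowest.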

Other observations

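Some genes of steroid conversion and transport varied with the receptors and Zbtb16 across strains. H6pd, the partner enzyme of Hsd11b1, rose by 1.04 per doubling of Nr3c1 in females (SE 0.191, edgeR adjusted p = 4.18e-06) and by 0.51 in males (SE 0.196, adjusted p = 0.0263), and by 0.46 (adjusted p = 1.66e-08) and 0.36 (adjusted p = 8.24e-05) per doubling of Zbtb16, while its slope on Hsd11b1 did not pass in either sex. The efflux pump gene Abcb1a rose with both receptors and with Zbtb16 in both sexes. With adipocyte and mammary marker means as covariates, the list's positive calls went from 3 to 0 on Zbtb16 in either sex, from 3 to 1 in females and 3 to 0 in males on Nr3c1, and from 2 to 0 and 2 to 1 on Nr3c2. With library totals the male calls on Nr3c1 were 0. Hsd11b2, which inactivates corticosterone, fell by 0.38 per doubling of Hsd11b1 in females (SE 0.119, adjusted p = 0.0206), when 7.31% of genes had a negative call, and its slope in males was -0.39 (SE 0.118, adjusted p = 0.0502). Among all genes, 28.5% in females and 23.6% in males had a positive call on Nr3c1, and 27.4% and 19.3% on Zbtb16, so such calls are common.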
